A study of Mus musculus with 12 samples.

Results

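Kinesins are motor proteins that use ATP to move along microtubules or to take them apart at their ends. Some members build and position the spindle, separate chromosomes and drive cytokinesis, and others carry vesicles, organelles and RNA. A fully grown oocyte is held in meiotic prophase with an intact nucleus, the germinal vesicle (GV), and later assembles its meiotic spindle without centrioles. Kinesin genes were taken as the protein-coding genes of GENCODE mouse release M21 with a symbol of Kif followed by a digit, or Kifc. By this rule 43 of the 55573 genes in the count files were kinesin genes. Of these, 42 are kinesins by name and are called motors here, without a test of motor activity. Kif1bp encodes a protein that binds kinesins and is not itself a motor.

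Poly(A) RNA was sequenced from mouse GV oocytes, in 12 libraries with 2 libraries in each of 6 groups. Whole oocytes were amplified for 10, 14 or 18 cycles, and lysates diluted to 1/2, 1/4 or 1/8 of an oocyte were, by the study's methods, amplified for 18 cycles. The study made the fractions to show how normalization to spike-in RNA works. All groups share the source, single fully grown GV oocytes of a healthy B6D2F1 female aged 12 weeks, collected in M2 medium with milrinone, and they differ in cycles and input. The study used 8 oocytes, 6 for the cycles and 2 for the fractions. Fractions of different size therefore share an oocyte. The p-values rest on the spread between libraries of the same group, estimated jointly over the 6 or 8 libraries of a fit and across genes. In the cycle groups these libraries came from separate oocytes. The main fit treated the fraction libraries as independent, so its p-values leave the shared oocytes out of account. ERCC molecules, synthetic RNAs of known sequence, had been added before poly(A) purification.

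Counts on genes were 11597144 and 9189672 at 10 cycles, 12349577 and 13806199 at 14 cycles, 3017069 and 1706478 at 18 cycles, 4024670 and 3598549 in the 1/2 fraction, 4027907 and 5049518 in the 1/4 fraction, and 11404262 and 1702062 in the 1/8 fraction. The whole oocytes at 18 cycles and replicate 2 of the 1/8 fraction were the shallowest, and depth did not overlap between whole oocytes at 18 cycles and those at 10 or 14 cycles. Levels are given in CPM, the counts of a gene scaled to the same total of counts on genes in every library. A single count was worth 0.0724 to 0.588 CPM.

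The label of the cells was checked against markers. All 13 oocyte markers had counts, with Gdf9, an oocyte growth factor, at the highest CPM. The summed oocyte marker level was 26699.8 and 24167 CPM at 10 cycles, 26679 and 28056 at 14 cycles, 7780.1 and 6621 at 18 cycles, 10188 and 9572 in the 1/2 fraction, 14044 and 15246 in the 1/4 fraction, and 22169.9 and 21882 in the 1/8 fraction. It was lowest in the whole oocytes at 18 cycles, and all libraries at 18 cycles, fractions included, lay under the whole oocytes at 10 and 14 cycles. All 12 granulosa and cumulus markers had a count in some library, and Nr5a2 had the highest CPM. Their sum was 149.8 and 85.6 CPM at 10 cycles, 107 and 152 at 14 cycles, 70.3 and 26.4 at 18 cycles, 34.5 and 32.5 in the 1/2 fraction, 58.6 and 61.0 in the 1/4 fraction, and 77.9 and 73.4 in the 1/8 fraction, far under the oocyte sum in each library. Foxl2 was at 0 in 7 and Fshr in 9 of the 12 libraries. The 7 theca and stroma markers summed to 78.7 and 5.11 CPM at 10 cycles, 12.5 and 23.5 at 14 cycles, 10.6 and 2.34 at 18 cycles, 2.48 and 0.556 in the 1/2 fraction, 0 and 0.990 in the 1/4 fraction, and 3.77 and 1.18 in the 1/8 fraction, with Cyp11a1 at the highest CPM and Cyp17a1 at 0 in 8 libraries. Of 6 blood and immune markers, 4 had a count, Hba-a1 and Hba-a2 were at 0 in all libraries, Cd68 had the highest CPM, and the sum was 6.55 and 1.20 CPM at 10 cycles, 1.70 and 2.54 at 14 cycles, 0.331 and 4.10 at 18 cycles, 0.497 and 0 in the 1/2 fraction, 0.497 and 4.16 in the 1/4 fraction, and 2.46 and 0 in the 1/8 fraction.

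Among the 43 kinesin genes, 31 had a count in every library and 30 had at least 5 counts in every library. Mean CPM was over 100 for 8 members, over 10 for 26 and under 1 for 8. Kif23, Kif22 and Kif4 had the highest CPM, which does not account for length, and held 41.1% of the summed mean CPM and the 12 members with the highest CPM held 80.0%. Kif12, of the kinesin-12 family, and Kif2b, a depolymerase related to Kif2a, had 0 counts in all 12 libraries, which allows up to 0.217 CPM in the deepest library and 1.76 CPM in the shallowest, taking 3 counts as the limit. Kif6 had 1 count in all, Kif7 3, Kif5a 8, Kif1a 11 and Kif19a 21.

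Summed over all members, the kinesin level was 3317 and 3389 CPM at 10 cycles, 3288 and 3144 at 14 cycles, 2598 and 1995 at 18 cycles, 2391 and 2709 in the 1/2 fraction, 2700.2 and 2742 in the 1/4 fraction, and 3089 and 3062 in the 1/8 fraction. The 2 libraries at 10 cycles averaged 3353 ± 51.5 (SD, n = 2) and those at 14 cycles 3216 ± 102 (SD, n = 2). Whole oocytes at 18 cycles averaged 2296 ± 426 (SD, n = 2), the 1/2 fraction 2550.2 ± 225, the 1/4 fraction 2721 ± 29.3 and the 1/8 fraction 3075 ± 19.2. In CPM both whole oocytes at 18 cycles lay under all at 10 and 14 cycles, at 69.9% of their mean, whereas per ERCC count they lay above them. The 1/8 fraction lay above the other fractions in CPM and under them per ERCC count. The sum was not tested. As a share of all counts on genes, kinesins made up 0.332% (Wilson 95% interval 0.328% to 0.335%) in replicate 1 at 10 cycles and 0.199% (0.193% to 0.206%) in replicate 2 at 18 cycles. Such intervals, and the limits for members at 0, reflect the sampling of reads alone, because PCR copies of a molecule are read more than once.

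**Figure D1:**
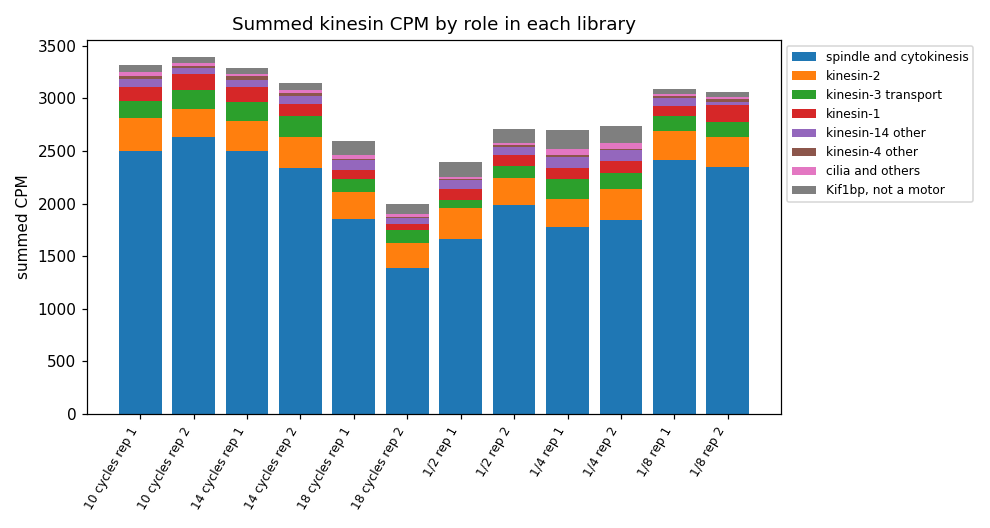
Summed kinesin CPM in each library (vertical axis, CPM), stacked by role, with 1 bar for each library. The bars run from 1995 CPM in replicate 2 at 18 cycles to 3389 CPM in replicate 2 at 10 cycles, and spindle and cytokinesis kinesins make up most of each bar.

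The 16 spindle and cytokinesis kinesins held 75.4% and 77.7% at 10 cycles, 75.9% and 74.4% at 14 cycles, 71.3% and 69.7% at 18 cycles, 69.6% and 73.2% in the 1/2 fraction, 65.9% and 67.3% in the 1/4 fraction, and 78.2% and 76.7% in the 1/8 fraction of the kinesin level. The share was lowest in the 1/4 fraction and overlapped between the 1/8 fraction and the whole oocytes at 10 cycles. Kif23 (ENSMUSG00000032254, chr9:61915905-61946774), the motor of centralspindlin at the midzone in cytokinesis, was at 507 and 558 CPM at 10 cycles, 510.4 and 484 at 14 cycles, 534 and 396 at 18 cycles, 457 and 562 in the 1/2 fraction, 459 and 462 in the 1/4 fraction, and 557 and 626 in the 1/8 fraction. Its level overlapped between the whole oocytes at 10, 14 and 18 cycles, and it was lowest in replicate 2 at 18 cycles. Kif22 (ENSMUSG00000030677, chr7:127027729-127042471), a chromokinesin that binds chromosome arms, was at 383 and 389 CPM at 10 cycles, 394 and 352 at 14 cycles, 353 and 164 at 18 cycles, 425 and 343 in the 1/2 fraction, 240.3 and 309 in the 1/4 fraction, and 522 and 384 in the 1/8 fraction. It was high in replicate 1 of the 1/8 fraction and low in replicate 2 at 18 cycles, and the groups at 14 and 18 cycles overlapped.

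Kif4 (ENSMUSG00000034311, chrX:100625737-100727214), a chromokinesin that also acts at the midzone, was at 417 and 489 CPM at 10 cycles, 391 and 372 at 14 cycles, 235 and 158 at 18 cycles, 247 and 281 in the 1/2 fraction, 249.8 and 268 in the 1/4 fraction, and 353 and 318 in the 1/8 fraction. Both libraries at 18 cycles were under all 4 whole oocytes at 10 and 14 cycles. Kif14 (ENSMUSG00000041498, chr1:136466343-136531511), which acts in cytokinesis, was at 294 and 285 CPM at 10 cycles, 309 and 286 at 14 cycles, 272 and 244 at 18 cycles, 146 and 260.4 in the 1/2 fraction, 292 and 247 in the 1/4 fraction, and 255 and 243 in the 1/8 fraction. It was low only in replicate 1 of the 1/2 fraction, and the other libraries lay between 243 and 309 CPM. Kif20a (ENSMUSG00000003779, chr18:34624613-34633277), which brings the chromosomal passenger complex to the midzone, was at 164 and 116 CPM at 10 cycles, 137 and 147 at 14 cycles, 122 and 96.7 at 18 cycles, 92.2 and 138 in the 1/2 fraction, 154 and 109 in the 1/4 fraction, and 159.6 and 125 in the 1/8 fraction, and its groups at 10 and 18 cycles overlapped. Kif20b (ENSMUSG00000024795, chr19:34922361-34975745), which also acts in cytokinesis, was at 191 and 264 CPM at 10 cycles, 194 and 159.8 at 14 cycles, 41.4 and 50.4 at 18 cycles, 51.7 and 85.3 in the 1/2 fraction, 63.6 and 55.5 in the 1/4 fraction, and 128 and 186 in the 1/8 fraction. It was low at 18 cycles and in the 1/2 and 1/4 fractions, none of which overlapped with 10 cycles, 14 cycles or the 1/8 fraction. Kif2c (ENSMUSG00000028678, chr4:117159639-117182639), a microtubule depolymerase at centromeres, was at 173 and 170.3 CPM at 10 cycles, 196 and 181 at 14 cycles, 48.1 and 58.6 at 18 cycles, 66.1 and 70.6 in the 1/2 fraction, 88.9 and 92.5 in the 1/4 fraction, and 149 and 132 in the 1/8 fraction and showed the same absence of overlap between these groups.

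Kif2a, a depolymerase of spindle poles, was at 79.6 and 98.8 CPM at 10 cycles, 73.5 and 82.5 at 14 cycles, 25.2 and 38.7 at 18 cycles, 35.8 and 39.7 in the 1/2 fraction, 38.7 and 66.5 in the 1/4 fraction, and 47.4 and 92.8 in the 1/8 fraction, and its 18-cycle libraries were under all whole oocytes at fewer cycles. Kif18a, which limits microtubule length and aligns chromosomes, was at 85.5 and 97.6 CPM at 10 cycles, 85.8 and 79.8 at 14 cycles, 17.2 and 26.4 at 18 cycles, 27.3 and 33.9 in the 1/2 fraction, 41.5 and 51.3 in the 1/4 fraction, and 45.8 and 90.5 in the 1/8 fraction. Here too the 18-cycle libraries were low and did not overlap with 10 or 14 cycles. Mean CPM over the libraries was 53.8 for Kif24, a depolymerase of centrioles, 50.4 for Kifc1, 32.0 for Kif18b, a plus-end motor, 22.1 for Kif11, 12.6 for Kifc5b and 4.66 for Kif15, which helps to keep the spindle bipolar. Kif11, the motor that pushes spindle poles apart in most dividing cells, had 12.3 to 33.5 CPM over the libraries.

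Kif17 (ENSMUSG00000028758, chr4:138250435-138301967), a kinesin-2 motor that works as a homodimer, was at 203 and 161 CPM at 10 cycles, 186 and 175 at 14 cycles, 94.1 and 119.5 at 18 cycles, 183 and 139.5 in the 1/2 fraction, 164 and 194 in the 1/4 fraction, and 195 and 179 in the 1/8 fraction. The 18-cycle whole oocytes were low, under all other libraries. Kif3a (ENSMUSG00000018395, chr11:53567379-53601967), which pairs with Kif3b for transport in cilia and cytoplasm, was at 70.2 and 64.9 CPM at 10 cycles, 64.4 and 73.8 at 14 cycles, 111 and 82.0 at 18 cycles, 80.0 and 99.2 in the 1/2 fraction, 67.3 and 67.9 in the 1/4 fraction, and 56.8 and 71.1 in the 1/8 fraction, and both 18-cycle whole oocytes were above all whole oocytes at 10 and 14 cycles. Kif3b ranged from 21.7 to 48.1 CPM and Kif3c from 0 to 4.74 CPM. Among kinesin-1 heavy chains, which carry cargo together with light chains, Kif5b ranged from 18.2 to 90.5 CPM and Kif5c from 28.8 to 97.2 CPM.

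Kif1b (ENSMUSG00000063077, chr4:149176319-149307693), a kinesin-3 that moves mitochondria and vesicles, was at 65.0 and 75.6 CPM at 10 cycles, 76.0 and 75.5 at 14 cycles, 58.7 and 50.4 at 18 cycles, 43.7 and 64.5 in the 1/2 fraction, 121 and 63.6 in the 1/4 fraction, and 43.7 and 65.2 in the 1/8 fraction, and replicate 1 of the 1/4 fraction stood above all other libraries. The other kinesin-3 members with counts in most libraries had mean CPM of 35.5 for Kif13b, 27.8 for Kif16b, 9.69 for Kif13a and 8.65 for Kif1c, and Kif28 was at 0.465. Kifc3 (ENSMUSG00000031788, chr8:95099828-95202812), a kinesin-14 that moves toward minus ends, was at 68.4 and 53.1 CPM at 10 cycles, 70.8 and 71.4 at 14 cycles, 90.8 and 55.7 at 18 cycles, 79.8 and 79.2 in the 1/2 fraction, 105 and 103 in the 1/4 fraction, and 80.8 and 32.3 in the 1/8 fraction. The 1/4 fraction stood above all other libraries, and the whole oocytes at 18 cycles overlapped with those at 10 and 14 cycles. Kifc2 had a mean of 1.01 CPM. Kif1bp (ENSMUSG00000036955, chr10:62538626-62578457), the kinesin-binding protein, was at 67.7 and 53.6 CPM at 10 cycles, 52.9 and 61.1 at 14 cycles, 139.5 and 97.9 at 18 cycles, 143 and 131 in the 1/2 fraction, 186 and 169 in the 1/4 fraction, and 43.7 and 48.8 in the 1/8 fraction. All libraries of the 18-cycle whole oocytes and of the 1/2 and 1/4 fractions were high and did not overlap with 10 cycles, 14 cycles or the 1/8 fraction.

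Besides Kif4 and the nearly absent Kif7, the kinesin-4 members were Kif21b, at 22.1 and 14.3 CPM at 10 cycles, 22.1 and 23.8 at 14 cycles, 5.63 and 4.10 at 18 cycles, 11.7 and 10.0 in the 1/2 fraction, 11.7 and 7.33 in the 1/4 fraction, and 10.7 and 10.6 in the 1/8 fraction, Kif27 with a mean of 3.74 CPM and Kif21a with 3.35 CPM. Kif21b, known as a neuronal motor that also controls microtubule growth, was lowest at 18 cycles and did not overlap there with 10 or 14 cycles. Among cilia and other kinesins Kif9 had a mean of 10.9 CPM and Kif26a of 8.79 CPM. Kif26b was at 10.3 and 5.01 CPM at 10 cycles, 2.43 and 5.14 at 14 cycles, 13.3 and 7.03 at 18 cycles, 3.48 and 5.00 in the 1/2 fraction, 25.6 and 26.3 in the 1/4 fraction, and 6.31 and 5.29 in the 1/8 fraction, and the 1/4 fraction stood above all other libraries.

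**Figure D2:**
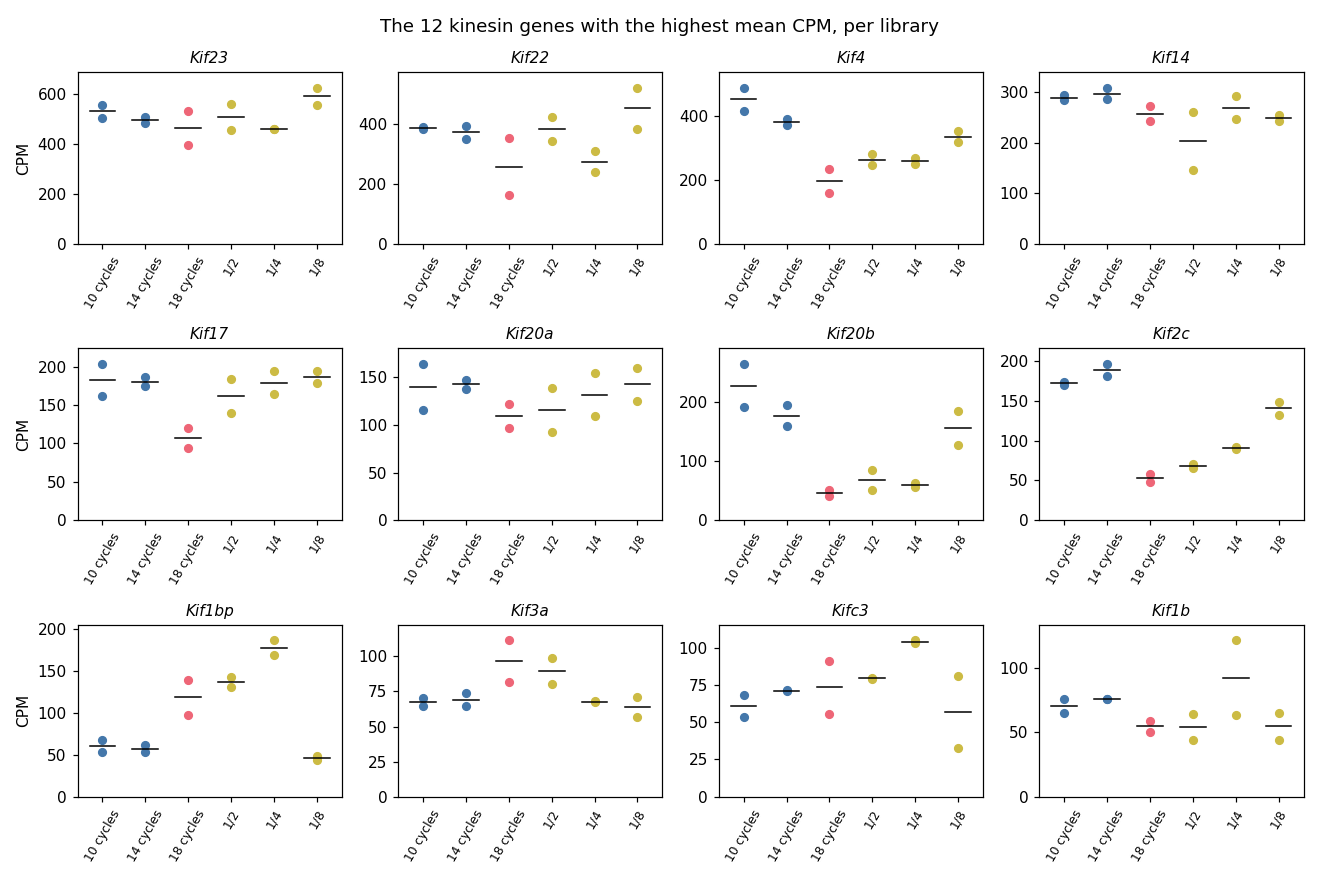
Level of the 12 kinesin genes with the highest mean CPM (vertical axis, CPM, from 0) in each group (horizontal axis), with 1 point per library and a line at the mean of 2 libraries. In CPM, Kif20b and Kif2c are low and Kif1bp is high in whole oocytes at 18 cycles, where Kif2c has 48.1 and 58.6 CPM, but with ERCC size factors their log2 fold changes there are 0.34, 0.73 and 3.60, and of these only Kif1bp passes the threshold.

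Since CPM also depends on transcript length, levels were set against each other between genes as CPM per kb of the longest transcript in the 4 whole oocytes at 10 and 14 cycles. Kif23 led with 152 ± 9.13 CPM per kb (SD, n = 4), followed by Kif22 with 106 ± 5.30 and Kif4 with 83.7 ± 10.3. Kif2c was next with 63.4 ± 4.04, then Kif17 with 52.5 ± 5.13. Over the 4 libraries the ranges of Kif23, Kif22, Kif4 and Kif2c overlapped with that of no other member, while that of Kif17 reached that of Kif20b. Kif20a (38.4 ± 5.46), Kif20b (36.4 ± 7.92) and Kif14 (32.8 ± 1.25) overlapped. Kif11 had 5.14 ± 0.571 CPM per kb and ranked 25 of 43. With the union of annotated exons as the length, an alternative chosen after seeing the data, Kif23 moved from rank 1 to rank 3, behind Kif22 with 77.4 and Kif4 with 75.6 CPM per kb.

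Whole oocytes at 14 cycles were compared with those at 10 cycles across all genes tested. Of the 43 members, 36 passed the filter, which asked for 5 or more counts from 2 or more of the 6 whole oocytes, and Kif19a, Kif1a, Kif5a, Kif7, Kif6, Kif12 and Kif2b did not. None of the 36 passed an adjusted p of 0.01 in edgeR's quasi-likelihood test, against 0% of all 17532 genes. At an unadjusted p under 0.05 the count was also 0, beside 513 of all genes. DESeq2 called 0 members, beside 1 lower and 1 higher of all genes. The median log2 fold change was -0.02 for the members and 0.01 for all genes tested.

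At 18 cycles, Kif20b, Kif21b, Kif18a, Kif2c, Kif2a and Kif4 fell and Kif1bp and Kif3a rose against the mean of 10 and 14 cycles by median ratio scaling, but with ERCC size factors, an alternative chosen after seeing the data, all 6 had positive log2 fold changes of 0.34 to 1.49, of which only that of Kif4 passed the threshold. Kif1bp and Kif3a were higher under both. By median ratio 6 of 36 members tested were lower, beside 12.6% of all genes, and 2 were higher, beside 15.4%. DESeq2 called 7 members lower and 3 higher, beside 2746 and 3114 of all 17532 genes. In edgeR 17 members had an unadjusted p under 0.05, beside 8714 of all genes. ERCC size factors moved the median log2 fold change of all genes tested from -0.29 to 1.97, and then 26 members were higher and 0 lower, beside 53.1% and 0.0171% of all genes. Size factors scale all genes of a library alike, and the 6 members lower by median ratio stayed under the median of all genes. The members' median was -0.18 relative to the median ratio and 2.13 with ERCC molecules.

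Kif20b had the largest fall of the members called by median ratio, against 0.34 with ERCC size factors (median ratio log2 fold change -1.86, standard error 0.25, edgeR quasi-likelihood test, Benjamini-Hochberg adjusted p = 0.0002), and both libraries at 18 cycles lay under all 4 others. Kif18a fell in 2 of 2 libraries by median ratio, against 0.44 with ERCC size factors (median ratio log2 fold change -1.75, standard error 0.26, edgeR quasi-likelihood test, Benjamini-Hochberg adjusted p = 0.000402). Kif2c also fell in 2 of 2 libraries by median ratio, against 0.73 with ERCC size factors (median ratio log2 fold change -1.48, standard error 0.20, edgeR quasi-likelihood test, Benjamini-Hochberg adjusted p = 0.000228). All 3 act in the spindle or in cytokinesis. Kif21b, which had few counts, fell in 2 of 2 libraries by median ratio, against 0.53 with ERCC size factors (median ratio log2 fold change -1.76, standard error 0.35, edgeR quasi-likelihood test, Benjamini-Hochberg adjusted p = 0.00258). Its adjusted p in edgeR was 0.0179 without replicate 1 at 18 cycles, with a log2 fold change of -1.93 from the 1 library left, and its call also ended without replicate 2 at 18 or at 14 cycles (adjusted p 0.000164 to 0.391 over the 13 alternatives).

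Kif2a fell in 2 of 2 libraries by median ratio, against 1.05 with ERCC size factors (median ratio log2 fold change -1.12, standard error 0.26, edgeR quasi-likelihood test, Benjamini-Hochberg adjusted p = 0.00549). Its call ended with 14 cycles alone as reference, without replicate 1 at 18 cycles or without any of the 4 libraries at 10 and 14 cycles, with the highest adjusted p among the edgeR fits without a library at 0.0549 and a log2 fold change of -0.73 from 1 library at 18 cycles (adjusted p 3.95e-05 to 0.0549 over the 14 alternatives). Kif4 fell in 2 of 2 libraries by median ratio, against 1.49 with ERCC size factors (median ratio log2 fold change -0.81, standard error 0.19, edgeR quasi-likelihood test, Benjamini-Hochberg adjusted p = 0.00693). Its call ended with 14 cycles alone as reference, without replicate 2 at 18 cycles or without any of the 4 libraries at 10 and 14 cycles, with the highest adjusted p among the edgeR fits without a library at 0.0337 and a log2 fold change of -0.58 from 1 library at 18 cycles (adjusted p 0.000233 to 0.0342 over the 14 alternatives).

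Kif1bp rose in 2 of 2 libraries by median ratio, as it did with ERCC size factors (median ratio log2 fold change 1.29, standard error 0.18, edgeR quasi-likelihood test, Benjamini-Hochberg adjusted p = 0.000276). Kif3a rose in 2 of 2 libraries by median ratio and with ERCC size factors (median ratio log2 fold change 0.78, standard error 0.17, edgeR quasi-likelihood test, Benjamini-Hochberg adjusted p = 0.0044). Its call ended with 10 or 14 cycles alone as reference, with at least 10 counts in every library, without replicate 1 at 18 cycles or without any of the 4 libraries at 10 and 14 cycles, with the highest adjusted p of these edgeR fits at 0.0311 and a log2 fold change of 0.74 from 2 libraries at 18 cycles (adjusted p 7.89e-08 to 0.0311 over the 14 alternatives). By role and median ratio, 5 of 15 spindle and cytokinesis kinesins tested were lower and 1 of 3 other kinesin-4 members was lower, with positive log2 fold changes for these with ERCC size factors that passed only for Kif4, while 1 of 4 kinesin-2 members was higher by median ratio, beside 12.6% lower and 15.4% higher of all genes. With ERCC size factors the kinesin-2 members Kif17, Kif3a and Kif3b were higher, beside 53.1% of all genes. Without replicate 2 at 14 cycles the count of lower members was 3, beside 1547 of all 16701 genes. The count of higher members was 1 without replicate 2 at 10 cycles, either replicate at 14 cycles or replicate 1 at 18 cycles, beside 2047, 2038, 2014 and 2228 genes in all.

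The 3 members tested with the lowest GC content of the longest transcript, Kif18a (38.2%), Kif2a (38.6%) and Kif20b (39.4%), were all among the lower calls. The next by GC content, Kif5b (41.1%), Kif11 (42.2%) and Kif15 (42.7%), were not called. The other lower calls were Kif4 at 48.1%, Kif2c at 50.3% and Kif21b at 56.7%, with Kif3a at 47.6% and Kif1bp at 51.4% among the higher. Across the 36 members tested, Spearman's rho between GC content and log2 fold change was 0.381, and across the 17513 genes tested with a known transcript it was 0.378. At 14 against 10 cycles, where no member was called, it was 0.401 across the same members and 0.00477 across all genes. These are descriptions across genes, which share the same libraries and are not independent replicates. Depth and the oocyte marker sum were also lower at 18 cycles, and the part of GC content, depth and markers in the result was not tested.

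**Figure D3:**
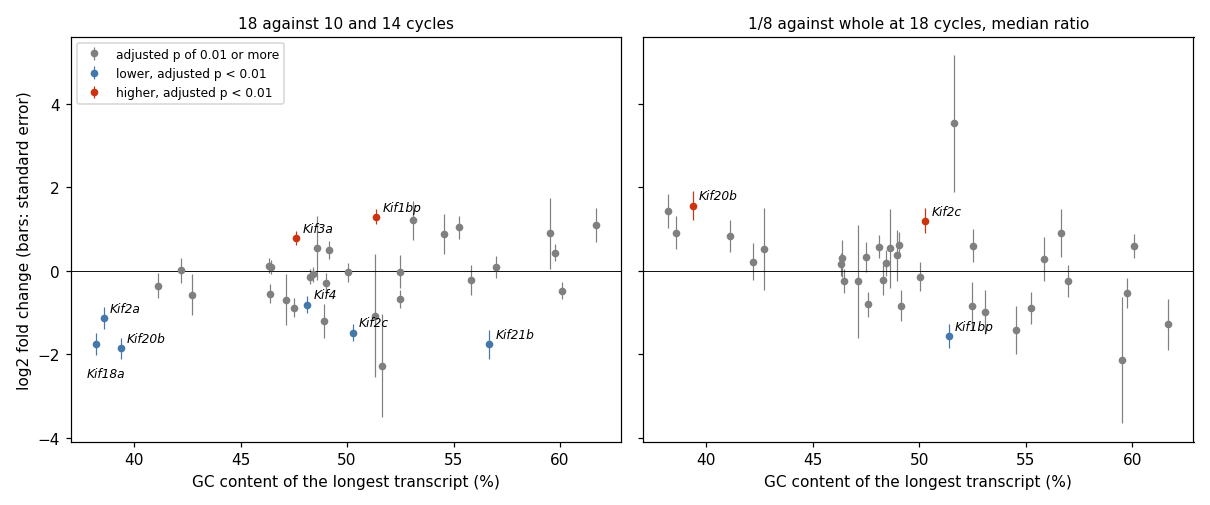
GC content of the longest transcript (horizontal axis, percent) against log2 fold change by median ratio (vertical axis) for each kinesin gene tested, at 18 against 10 and 14 cycles (left, 36 genes) and for the 1/8 fraction against whole oocytes at 18 cycles (right, 35 genes). Bars are standard errors, and colours mark genes with an adjusted p under 0.01. Spearman's rho is 0.381 on the left and -0.431 on the right, beside 0.378 and -0.398 across all genes tested with a known transcript. With ERCC size factors the lower calls on the left have positive log2 fold changes, passing only for Kif4. The higher calls on the right are lower with these size factors.

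The fractions were compared with whole oocytes within the 8 libraries at 18 cycles. In that fit 35 of the 43 members passed the filter, since Kif28 had too few counts as well. By median ratio none of them differed at the threshold between the 1/2 fraction and whole oocytes, beside 0.122% of all genes, or between the 1/4 fraction and whole oocytes, beside 0.46%. In edgeR 5 and 6 members had an unadjusted p under 0.05, beside 1943 and 2331 of all 14788 genes. DESeq2 called 0 members in the 1/2 fraction, beside 49 lower and 103 higher of all genes, and 0 in the 1/4 fraction, beside 171 lower and 70 higher. The members' median log2 fold change was -0.06 in the 1/2 and 0.02 in the 1/4 fraction, beside -0.01 and 0.05 for all genes.

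In the 1/8 fraction, against the whole oocytes at 18 cycles, Kif20b and Kif2c rose and Kif1bp fell by median ratio, but with ERCC size factors all 3 fell. The median log2 fold change of all genes was 0.03 by median ratio and -4.92 with ERCC size factors. By median ratio 2 of 35 members were higher, beside 7.06% of all genes, and 1 was lower, beside 8.69%, shares that did not exceed those of all genes. In edgeR 14 members and 5804 of all 14788 genes had an unadjusted p under 0.05. TMM, DESeq2 and edgeR without a filter or with a stricter filter each called Kif18a higher as well, while ERCC size factors called it lower. With DESeq2 3 members were higher, beside 1254 of all genes. Kif1bp fell by median ratio in 2 of 2 libraries, against -6.57 with ERCC size factors (median ratio log2 fold change -1.56, standard error 0.30, edgeR quasi-likelihood test, Benjamini-Hochberg adjusted p = 0.000558). Kif20b rose by median ratio in 2 of 2 libraries, against -3.36 with ERCC size factors (median ratio log2 fold change 1.56, standard error 0.34, edgeR quasi-likelihood test, Benjamini-Hochberg adjusted p = 0.00165). Kif2c rose by median ratio in 2 of 2 libraries, against -3.72 with ERCC size factors (median ratio log2 fold change 1.20, standard error 0.30, edgeR quasi-likelihood test, Benjamini-Hochberg adjusted p = 0.00501). Without replicate 1 of the whole oocytes at 18 cycles or replicate 2 of the 1/8 fraction, Kif20b lost its call, with log2 fold changes of 1.34 and 1.29 and adjusted p in edgeR of 0.037 and 0.0186 (adjusted p 8.61e-05 to 0.584 over the 14 alternatives). Kif2c lost its call without any single library of the whole oocytes, the 1/4 or the 1/8 fraction, with the highest adjusted p of these edgeR fits at 0.0731 and a log2 fold change of 0.97 from 2 libraries of the fraction (adjusted p 0.000432 to 0.504 over the 14 alternatives).

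The calls differed with the reference. This comparison and the one of cycles use the same 2 whole oocytes at 18 cycles, so the values are not independent of each other. Against the whole oocytes at 10 and 14 cycles the 1/8 fraction had 0 members lower and 0 higher of 36 in edgeR. The share of all genes called was 0%, and DESeq2 was not run with this reference. There the log2 fold changes were -0.30 for Kif20b, -0.28 for Kif2c and -0.28 for Kif1bp. The 1/2 fraction then had 5 members lower and 1 higher, beside 8.81% and 12.3% of all genes. The 1/4 fraction had 2 lower and 3 higher, beside 5.35% and 8.48%. In that reference cycles and input differ together by design and cannot be told apart.

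Against the 1/4 fraction, Kif1bp and Kif26b, a kinesin known from kidney development, were lower in the 1/8 fraction by median ratio and with ERCC size factors, which were added after seeing the data. These were 2 of 35 members, beside 3.42% of all genes, with 0 higher, beside 1.54%, in edgeR, where 7 members and 3985 of all 14788 genes had an unadjusted p under 0.05, and DESeq2 called 2 members lower and 1 higher, beside 727 and 384 of all genes. Kif1bp was lower in 2 of 2 libraries under both scalings (median ratio log2 fold change -2.01, standard error 0.30, edgeR quasi-likelihood test, Benjamini-Hochberg adjusted p = 0.000227). Kif26b was also lower in 2 of 2 libraries under both (median ratio log2 fold change -2.19, standard error 0.50, edgeR quasi-likelihood test, Benjamini-Hochberg adjusted p = 0.00663). Leaving out any library of the 1/4 or 1/8 fraction ended its call, with an adjusted p in edgeR of 0.0735 and a log2 fold change of -2.16 in 2 of 2 libraries of the 1/8 fraction without replicate 1 of the 1/4 fraction (adjusted p 8.6e-07 to 0.0735 over the 13 alternatives). With ERCC size factors 26 members were lower in all, beside 60.2% of all genes, as the median of all genes moved from 0.01 to -2.19. Spearman's rho between GC content and log2 fold change was -0.544 across 35 members and -0.392 across all genes, and its part in the result was not tested.

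The kinesin total was also set against the ERCC molecules. Kinesin counts per ERCC count were 1.07 and 1.22 at 10 cycles, 1.14 and 1.11 at 14 cycles, 4.86 and 2.31 at 18 cycles, 1.05 and 0.931 in the 1/2 fraction, 0.578 and 0.476 in the 1/4 fraction, and 0.152 and 0.142 in the 1/8 fraction. The ratio was high at 18 cycles in whole oocytes, where the 2 libraries differed most, and low in the 1/8 fraction, and the 3 fractions did not overlap with each other. Means were 3.59 ± 1.81 (SD, n = 2) in whole oocytes at 18 cycles, 0.991 ± 0.0836 in the 1/2, 0.527 ± 0.0723 in the 1/4 and 0.147 ± 0.00691 in the 1/8 fraction. The fractions, diluted to 1/2, 1/4 and 1/8 of an oocyte, thus held 27.6%, 14.7% and 4.11% of the mean in whole oocytes at 18 cycles. Set against replicate 2 alone, without replicate 1, these shares were 42.9%, 22.8% and 6.38%. The whole oocytes at 18 cycles had only 1611 and 1474 ERCC counts. Those at 10 cycles had 35852 and 25528, and those at 14 cycles 35616 and 39046. Every comparison of whole oocytes at 18 cycles with ERCC size factors rests on these low counts. At 10 and 14 cycles the means were 1.15 ± 0.104 and 1.13 ± 0.0200, above that of the 1/2 fraction.

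With ERCC size factors, 26 of 35 members were lower in the 1/2 fraction than in whole oocytes at 18 cycles, beside 52% of all genes, where by median ratio none was called. In the 1/4 fraction 31 were lower, beside 69.7%, and in the 1/8 fraction 34, beside 87.5%. The members' medians on the log2 scale were -2.09, -2.69 and -4.79, beside -1.997, -2.69 and -4.92 for all genes. Kif3c was the only member tested that did not pass in the 1/8 fraction, with a negative log2 fold change of -1.30 and 54 counts in replicate 1 and 1 in replicate 2. In the 1/2 fraction 8 of 35 members were lower without replicate 1 of the whole oocytes at 18 cycles, beside 3081 of all 14609 genes, and 8 of 35 without replicate 2 of the fraction, beside 1930 of all 14626 genes. In the 1/4 fraction 20 of 35 members were lower without its replicate 2, beside 6703 of all 14360 genes. Against whole oocytes at 10 and 14 cycles, 1, 6 and 33 members were lower in the 1/2, 1/4 and 1/8 fractions, beside 3.75%, 10.9% and 77.8% of all genes.

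Partners and other genes of microtubule transport gave a comparison at 18 against 10 and 14 cycles, by median ratio. Of 10 tested genes for kinesins with another symbol, light chains and adaptors, 1 was lower and 4 were higher, against 0 and 9 with ERCC size factors. Cenpe, the kinetochore kinesin-7, was at 292 and 492 CPM at 10 cycles, 299 and 345 at 14 cycles, 88.8 and 134 at 18 cycles, 171 and 187 in the 1/2 fraction, 209 and 214 in the 1/4 fraction, and 289 and 413 in the 1/8 fraction. It was the lower gene, in 2 of 2 libraries by median ratio, against 0.75 with ERCC size factors (median ratio log2 fold change -1.39, edgeR quasi-likelihood test, Benjamini-Hochberg adjusted p = 0.00322). Next by CPM in that list were Trak1, with a mean of 175 CPM, and Mapk8ip3, with 103 CPM. Of 24 dynein and dynactin genes tested, 3 were lower and 7 higher, and of 16 tubulins 5 were lower and 3 higher, against 0 lower and 18 higher, and 0 lower and 11 higher, when scaled by ERCC molecules. Of all genes tested, 12.6% were lower and 15.4% higher by median ratio, and 53.1% were higher with ERCC molecules. The highest CPM values in these lists were those of Dynll1, Ndel1 and Dynll2, with means of 417, 374 and 277 CPM, and Tubb6, Tubb4b and Tuba3a, with 873, 821 and 545 CPM. Their median log2 fold changes were 0.65 for partners, -0.07 for dynein and dynactin and -0.52 for tubulins, beside -0.29 for all genes.

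In the 1/8 fraction against whole oocytes at 18 cycles, by median ratio, 2 partners were lower and 1 was higher of 10 tested. Dynein and dynactin had 7 lower and 3 higher of 23, and tubulins 2 lower and 1 higher of 16, beside 8.69% lower and 7.06% higher of all genes. With ERCC size factors 10 of 10, 23 of 23 and 16 of 16 were lower, beside 87.5% of all genes. Cenpe was the partner that was higher, in 2 of 2 libraries by median ratio, against -3.44 with ERCC size factors (median ratio log2 fold change 1.45, edgeR quasi-likelihood test, Benjamini-Hochberg adjusted p = 0.00128).

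Sequence and position bear on which members the counts can tell apart. Kifc1, a minus-end motor that bundles spindle microtubules, and Kifc5b, which also lies on chromosome 17, shared 45.8% of the 50-base windows of the Kifc1 transcript, so the counts of both are uncertain. Shared windows made up at most 3.04% of any other member, with 0.0565% in Kif22 and 0.304% in Kif4, both shared with pseudogenes. Exons of 17 members overlapped those of another gene. On the opposite strand Kif20a overlapped Cdc23, Kif2a overlapped Dimt1, and Kif4 overlapped Pdzd11, by 1271, 1229 and 832 bases, so their levels are uncertain where reads carry no strand. Kif1bp overlapped an antisense gene by 494 bases, while Kif23, Kif14, Kif20b, Kif2c and Kif3a overlapped none.

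Promoter sequences were given for 33 of the 43 members, with 37 promoters of 300 bases from RefSeq (GRCm38.p6), 250 bases before to 50 bases after the start. They were searched on both strands for TTTGAA, the letters of the cell cycle element CHR, and for CCAAT, the letters bound by NF-Y in many promoters. TTTGAA or its reverse complement was present in 11 of 16 promoters of spindle and cytokinesis kinesins (68.8%), in 3 of 21 of the other kinesin genes (14.3%) and in 17.9% of all 32851 promoters. CCAAT was present in 62.5%, 33.3% and 37.4% of the same sets. These motifs were chosen after the data were seen, the sets share paralogs, and a match is a description and no site of binding.

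The promoters of spindle and cytokinesis kinesins with the highest CPM show where these letters lie, since these members made up most of the kinesin level. They are Kif23 (chr9:61946770-61947049, minus strand), Kif22 (chr7:127042391-127042670, minus strand), Kif4 (chrX:100625815-100626094, plus strand), Kif14 (chr1:136467598-136467877, plus strand), Kif20b (chr19:34922108-34922387, plus strand) and Kif2c (chr4:117178743-117179022, minus strand), all on GRCm38.p6 from RefSeq, and Kif20a is not shown. Each run is written 5′ to 3′ from 250 bases before the start to 30 bases after it, with TTTGAA or its reverse complement, and likewise CCAAT or its reverse complement, in capitals.
Kif23: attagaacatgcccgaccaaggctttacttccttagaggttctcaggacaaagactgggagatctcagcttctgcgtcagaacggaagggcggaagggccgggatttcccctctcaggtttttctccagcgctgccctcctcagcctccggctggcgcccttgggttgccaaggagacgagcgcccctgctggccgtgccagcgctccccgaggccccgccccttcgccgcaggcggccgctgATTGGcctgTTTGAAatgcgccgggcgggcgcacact
Kif22: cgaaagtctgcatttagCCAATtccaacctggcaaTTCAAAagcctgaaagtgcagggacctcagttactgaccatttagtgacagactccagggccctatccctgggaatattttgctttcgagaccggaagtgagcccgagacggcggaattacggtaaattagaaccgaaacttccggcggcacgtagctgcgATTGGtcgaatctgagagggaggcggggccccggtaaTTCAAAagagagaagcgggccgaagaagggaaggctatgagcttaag
Kif4: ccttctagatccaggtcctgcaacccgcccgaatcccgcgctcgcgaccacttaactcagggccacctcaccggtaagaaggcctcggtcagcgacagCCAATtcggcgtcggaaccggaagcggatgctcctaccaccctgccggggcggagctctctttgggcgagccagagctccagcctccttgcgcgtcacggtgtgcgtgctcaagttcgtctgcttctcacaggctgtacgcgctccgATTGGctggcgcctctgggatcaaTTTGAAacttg
Kif14: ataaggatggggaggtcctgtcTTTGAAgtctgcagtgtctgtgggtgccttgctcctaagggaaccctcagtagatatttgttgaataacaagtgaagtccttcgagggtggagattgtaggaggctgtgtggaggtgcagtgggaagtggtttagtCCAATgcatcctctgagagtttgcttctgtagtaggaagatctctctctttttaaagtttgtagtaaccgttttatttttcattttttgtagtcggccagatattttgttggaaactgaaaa
Kif20b: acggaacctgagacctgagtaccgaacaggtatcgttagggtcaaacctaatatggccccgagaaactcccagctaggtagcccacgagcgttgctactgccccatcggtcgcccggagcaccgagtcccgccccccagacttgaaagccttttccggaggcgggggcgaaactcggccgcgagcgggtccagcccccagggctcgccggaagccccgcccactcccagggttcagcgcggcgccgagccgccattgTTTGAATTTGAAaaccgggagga
Kif2c: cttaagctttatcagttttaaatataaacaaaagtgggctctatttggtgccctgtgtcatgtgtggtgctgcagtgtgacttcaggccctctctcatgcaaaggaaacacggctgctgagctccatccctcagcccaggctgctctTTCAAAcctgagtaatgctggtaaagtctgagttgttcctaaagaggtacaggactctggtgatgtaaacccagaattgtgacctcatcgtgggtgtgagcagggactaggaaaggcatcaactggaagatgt

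The start meant here is that of the RefSeq entry, and for Kif4, Kif14 and Kif2c the whole window lay inside the gene as GENCODE bounds it. In Kif23, Kif4 and Kif20b the TTTGAA letters lay just after the start, in Kif22 both just before it and far upstream, and in Kif14 and Kif2c only upstream of that start. Kif20b held a pair of TTTGAA copies in a row and no CCAAT. Kif23 and Kif4 held the reverse complement of CCAAT directly upstream of the start, and Kif2c held no CCAAT in this window.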

How the data were processed

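The authors deposited raw counts, which held reads on genes and on ERCC molecules as unscaled numbers. The submitters' processing notes name cutadapt 2.5, STAR 2.7.2a, SAMtools 1.9 and HTSeq 0.9.1. The study's methods give default parameters, which count by strand, for HTSeq 0.11.4, and whether the deposited counts were made by strand was not settled, since the notes name another version and the library kit does not mark strand. Reads on no feature were 6.90% to 10.8% of each library and were left out of totals and tests. The library with the fewest reads on genes had 1702062.

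Members were matched by Ensembl ID through GENCODE mouse release M21. The members, lists and tests were chosen with earlier results of these data known. Differential abundance was tested on all genes with edgeR 4.0.16 in R 4.3.3 (glmQLFit and glmQLFTest), with Benjamini-Hochberg adjustment, a threshold of 0.01 as in the study's methods, and a filter that kept genes with 5 or more counts from 2 or more libraries. The cycle fit held 6 whole oocytes and the fraction fit 8 libraries, with size factors from the median ratio over genes or over ERCC molecules. The fit was tested on simulated data. Tables and figures used Python 3.11.15, pandas 2.3.3 and matplotlib 3.10.9. Values in every library were given for the 12 members with the highest mean CPM and statistics for every member called by median ratio. Other lists were described by counts and their 3 genes with the highest CPM. Levels of Kif2a, Kif18a, Kif21b and Kif26b were added to this as called members, and single genes outside the rule were named after their values were seen. Alternatives were DESeq2 1.42.0, other filters, the replicate number as a block, TMM, total ERCC counts, other references and leaving out each library, and for the summed level motors alone, reads on no feature in the total and median ratio scaling.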

Additional observations from a re-analysis of the deposited data

How the results depend on the processing

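The counts of members called at 14 against 10 cycles were 0 under every alternative run. Over all genes, edgeR without a filter gave 7 lower and 2 higher of 28984, and DESeq2 gave 1 and 1 of 17532. At 18 against 10 and 14 cycles the higher calls went from 2 to 1 with at least 10 counts in every library, where 28 members were tested. They also went to 1 with 10 or 14 cycles alone as reference. Beside these, 2346 of all 9073 genes tested, 2155 and 2199 of 17532 were higher. The lower calls went from 6 to 9, 6 and 4 in the same fits, beside 2259, 1898 and 1873 genes in all. With ERCC size factors (chosen after seeing the data) the count lower was 0 and the count higher 26, beside 3 and 9314 of all genes. There the log2 fold changes turned positive, to 0.34 for Kif20b, 0.53 for Kif21b, 0.44 for Kif18a, 0.73 for Kif2c, 1.05 for Kif2a, 1.49 for Kif4. The median of all genes also moved from under to above 0, and these 6 members stayed under it. Why the 2 scalings differ was not tested. Leaving out single libraries gave 3 to 6 lower and 1 to 2 higher, beside 1304 to 2024 and 2014 to 2535 of all genes, with 3 lower without replicate 2 at 14 cycles, and 1 higher without replicate 2 at 10 cycles, either replicate at 14 cycles or replicate 1 at 18 cycles.

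With whole oocytes at 10 and 14 cycles as reference, whose shares of all genes stand in the results, the median ratio gave 5 lower and 1 higher in the 1/2, 2 lower and 3 higher in the 1/4 and 0 lower and 0 higher in the 1/8 fraction, where Kif2c (-0.28) and Kif20b (-0.30) turned negative. ERCC size factors gave 1 lower and 1 higher in the 1/2 and 6 lower and 1 higher in the 1/4 fraction. Of all 18041 genes, 1890 and 284 were higher in these fits. The cause was not tested. For the 1/8 against the 1/4 fraction, DESeq2, no filter, TMM and the replicate block each gave 1 higher. So did at least 10 counts in every library. In that order, 384, 383, 239, 292 and 262 of all genes were higher. The lower calls were 2, 3, 2, 2 and 1, beside 727, 833, 368, 682 and 414 of all genes. ERCC size factors gave 26 lower, beside 8895. TMM left 0 genes lower and 1 higher of all genes in the 1/2 fraction, beside 6 and 12. Leaving out single libraries gave 0 to 2 higher in the 1/8 fraction against whole oocytes, beside 287 to 957 of all genes (0 without replicate 1 at 18 cycles or replicate 2 of the fraction, 1 without replicate 2 at 18 cycles or either replicate of the 1/4 fraction), 1 to 2 lower against the 1/4 fraction, beside 90 to 545 (1 without any replicate of either), and with ERCC molecules 8 to 28 lower in the 1/2 and 20 to 31 in the 1/4 fraction, beside 1930 to 8908 and 6703 to 10592. Kif1bp kept its direction and its call at 18 cycles and against the 1/4 fraction under all 14 alternatives, with adjusted p up to 0.00345 and 0.00705. Kif20b, Kif18a and Kif2c kept theirs at 18 cycles under all but ERCC size factors. In the 1/8 fraction Kif1bp kept its direction under all and its call under all but the reference of 10 and 14 cycles (log2 fold change -0.28, adjusted p = 0.545 in edgeR). A group left with 1 library was assumed to vary like the others.

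The labels do not say whether the replicate number marks the oocyte of a fraction, and the correlation of deviations between same-numbered samples ranged from -0.143 to 0.135. With the replicate block, 7 members were lower and 3 higher at 18 against 10 and 14 cycles, beside 2415 and 2745 of all genes, 0 at 14 against 10 cycles, and 1 lower and 3 higher in the 1/8 fraction by median ratio, beside 1476 and 1165.

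The summed level was 3096 CPM at 10 cycles, 2897 at 14 cycles, 2568 at 18 cycles in whole oocytes and 2949.7 in the 1/8 fraction with median ratio scaling, 3292 at 10 cycles, 2543 in the 1/4 and 3029 in the 1/8 fraction for motors alone, and 2989 at 10 cycles, 2863 at 14 cycles, 2503 in the 1/4 and 2815 in the 1/8 fraction with reads on no feature in the total. By median ratio the whole oocytes at 18 cycles lay closer to those at 10 and 14 cycles than in CPM. In CPM the means were 2296 at 18 cycles, 3353 at 10 cycles and 3216 at 14 cycles. Each group had 2 libraries, and whole oocytes at 18 cycles had low depth. The part of depth in the values of the rare members was not tested, and neither was the cause of shifts with the reference.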
